A study of Mus musculus with 34 samples.

Results

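The genes described here encode the proteasome, the barrel-shaped protease that degrades ubiquitin-tagged proteins, and its interferon-inducible form, the immunoproteasome. Members were all genes whose symbol on the array platform starts with Psma, Psmb, Psmc, Psmd or Psme followed by a digit, and each was represented by whichever of its probe sets averaged highest across the arrays. The rule found 45 members among 18194 genes that a probe set names alone. They comprise 34 constitutive members, 5 inducible members and 6 other symbols. One inducible member is a probe set, 1417189_at, that the platform table assigns to both Psme2 and Psme2b, so it is called by its identifier throughout.

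In the constitutive core particle, outer rings of alpha subunits (Psma genes) frame inner rings of beta subunits (Psmb genes), of which Psmb5, Psmb6 and Psmb7 carry the catalytic sites. Interferon gamma is known to induce Psmb8, Psmb9 and Psmb10, whose products take the places of these catalytic subunits in newly built particles, and Psme1 and Psme2, which form the PA28 activator; the resulting particle favours peptides suited to class I antigen presentation. The regulatory particle (Psmc and Psmd genes) recognises, unfolds and admits ubiquitinated substrates, and in the central nervous system microglia and infiltrating immune cells are the usual sites of immunoproteasome expression.

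The series measured thoracic spinal cord of C57BL/6J mice (greater than N20 generation) aged 8 to 12 weeks on 34 expression arrays, which the labels call biological replicates. Knockout (KO) mice lack trkB.T1, the truncated isoform of the neurotrophin receptor TrkB, and wild-type (WT) mice carry it; tissue was labelled sham or taken 1, 3 or 7 days after a moderate contusion of the thoracic cord. The trkB.T1 KO groups were sham (n = 4), day 1 (n = 4), day 3 (n = 5) and day 7 (n = 4), and the trkB.T1 WT groups were sham (n = 4), day 1 (n = 5), day 3 (n = 4) and day 7 (n = 4). Description codes of the sham arrays begin with Nav, and the sources used here do not say whether those mice were operated on, whether animals were pooled, or how the KO allele was made.

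Values are log2 expression units on which the arrays ran from 2.17 to 15.904. A difference of 1 unit is a factor of 2 in signal. A probe set was tested when it reached 4 in at least 4 arrays, which 43 of the 45 members did, and a call means an adjusted p under 0.05 (limma, Benjamini-Hochberg over all 24573 tested probe sets). Psma8, a testis alpha subunit, and Psmb11, the thymus-specific catalytic subunit, did not pass this filter, and their highest values on any array were 3.27 and 2.80.

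In all, 6 libraries stand apart or go against a label field. The targeted gene Ntrk2 was read on the 2 of its probe sets with the largest difference between genotypes. On 1420838_at it read 3.12 to 4.94 in the KO arrays, except for 9.46 in the library labelled sham KO replicate 2, and 10.01 to 10.85 in the WT arrays. The other, 1435196_at, separated the same library at 8.59, against 2.83 in each of the other KO arrays and 8.64 to 9.92 in the WT arrays. Array weights were lowest for day 3 WT replicate 2 (0.09), day 3 KO replicate 3 (0.16) and day 3 KO replicate 4 (0.21). Day 1 WT replicates 1 and 2 are named so by their titles, which were followed, although other label fields give another time; all 34 arrays lay nearest to the mean of their titled time.

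RefSeq promoter windows of the assembly GRCm38.p6 are shown for the inducible members Psmb8 and Psme1, beside Psmb5 and Psmb6, catalytic subunits replaced in the immunoproteasome. Each runs from 150 bases before to 30 bases after the annotated start site, 5′ to 3′ along the gene. Capitals mark a complete match, on either strand, to the interferon gamma-activated site (GAS, TTCNNNGAA), the interferon-stimulated response element (ISRE, GAAA and GAAA with 2 free bases between) or the antioxidant response element core (ARE, TGANNNNGC), where N is any base.
Psmb8, chr17:34198045-34198224, plus strand: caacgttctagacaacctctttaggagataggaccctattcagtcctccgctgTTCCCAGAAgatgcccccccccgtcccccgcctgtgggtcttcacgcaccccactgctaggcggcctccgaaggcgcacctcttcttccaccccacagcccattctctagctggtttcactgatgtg
Psme1, chr14:55578344-55578523, plus strand: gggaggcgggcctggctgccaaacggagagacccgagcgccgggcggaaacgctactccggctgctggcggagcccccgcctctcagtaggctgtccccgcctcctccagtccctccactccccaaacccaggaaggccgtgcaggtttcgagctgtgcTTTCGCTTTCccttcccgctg
Psmb5, chr14:54617966-54618145, minus strand: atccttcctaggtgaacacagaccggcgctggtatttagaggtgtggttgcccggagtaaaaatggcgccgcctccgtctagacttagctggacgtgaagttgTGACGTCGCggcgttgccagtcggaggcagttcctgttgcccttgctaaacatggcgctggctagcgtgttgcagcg
Psmb6, chr11:70525207-70525386, plus strand: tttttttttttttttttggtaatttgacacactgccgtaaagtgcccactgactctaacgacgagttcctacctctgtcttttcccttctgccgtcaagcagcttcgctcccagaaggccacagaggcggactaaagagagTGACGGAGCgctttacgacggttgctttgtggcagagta

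The Psmb8 window holds a GAS match 97 bases before the start site, and the Psme1 window an ISRE match at base 10 after it, which reads TTTCGCTTTC on the gene's strand. The Psmb5 and Psmb6 windows each hold an ARE match, 47 and 9 bases before the start site. Over the full windows of the RefSeq table, which reach farther on both sides, a GAS match stood in 8.3%, an ISRE match in 3.44% and an ARE match in 41.3% of the 32851 promoters in the RefSeq table. Among the 4 promoters of inducible genes in that table the counts were 1, 1 and 2. Among the 30 promoters of 28 constitutive genes they were 1, 3 and 17, the last a share of 56.7%. The constitutive GAS match was in Psmd2 and the ISRE matches in Psmb3, Psmd4 and Psmd9, whose windows are not shown. In the Psmb9 promoter only an ARE match, 60 bases before the start, was found, and in the Psmb10 promoter none of the 3 motifs. The inducible windows shown are thus those with a GAS or ISRE match, and the windows shown do not stand for their classes. A match describes letters in these windows and was not tied to the binding of any factor.

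All 5 inducible members rose after injury in both genotypes at each of the 3 times. Psmb9 met the filter only through injured arrays, so its calls add no separate support to this count. The smallest of these 30 log2 differences was 0.31 ± 0.10 for Psmb10 in WT on day 3, and the largest outside Psmb9, whose differences are lower bounds, was 3.44 ± 0.21 for Psmb8 in KO on day 7 (limma estimate ± SE, here and below). The share of all tested probe sets called higher was 20.9% in KO on day 1, 28.2% on day 3 and 19.8% on day 7, and 24% in WT on day 1, 26.1% on day 3 and 21.8% on day 7. Depending on the injury comparison, all injured arrays lay above all sham arrays for 20.9% to 23.8% of tested probe sets. They lay below all sham arrays for 25.7% to 32.7%, so separation from sham was common. The inducible medians were 0.97, 1.26 and 1.26 in KO on days 1, 3 and 7, and 0.89, 0.91 and 1.15 in WT. Over all tested probe sets the medians lay between -0.08 and -0.04.

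Psmb8, which encodes the inducible subunit beta 5i, was higher at every time after injury. In KO mice it read 5.59, 5.02, 5.79 and 5.82 in sham arrays, 8.65, 8.51, 8.33 and 8.40 on day 1, 8.85, 8.35, 9.34, 9.28 and 8.43 on day 3, and 8.97, 8.81, 9.01 and 9.20 on day 7. In WT mice it read 5.79, 5.01, 5.67 and 5.47 in sham arrays, 8.71, 8.29, 8.00, 8.34 and 8.15 on day 1, 8.35, 8.31, 8.38 and 8.35 on day 3, and 8.93, 8.36, 8.61 and 9.13 on day 7. Every injured array was above every sham array. The log2 differences from sham were 2.92 ± 0.21, 3.30 ± 0.20 and 3.44 ± 0.21 in KO on days 1, 3 and 7, and 2.81 ± 0.20, 2.86 ± 0.21 and 3.27 ± 0.21 in WT, with limma adjusted p between 2.07e-14 and 3.93e-12. Most of the Psmb8 difference was thus present at the first time measured.

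Psmb9, which encodes beta 1i, had every sham array below 4, so its differences from sham are lower bounds. It met the filter only through injured arrays, where it was high, so its p-values are not independent of the filter. In KO mice the sham arrays read 3.17, 3.11, 3.60 and 3.35, the day 1 arrays 5.55, 5.35, 5.11 and 5.53, the day 3 arrays 5.99, 5.23, 6.95, 5.89 and 5.59, and the day 7 arrays 6.46, 5.73, 6.55 and 6.37. In WT mice the sham arrays read 3.03, 2.90, 3.20 and 3.42, the day 1 arrays 5.56, 4.19, 3.95, 4.76 and 4.94, the day 3 arrays 5.85, 4.93, 5.51 and 5.42, and the day 7 arrays 6.32, 5.50, 6.35 and 7.02. No injured array overlapped the sham arrays, and the day 1 WT arrays were spread more widely than the day 1 KO arrays. Psmb9 was higher than in sham by at least 2.07 ± 0.32, 2.62 ± 0.30 and 2.97 ± 0.32 in KO on days 1, 3 and 7, and by at least 1.54 ± 0.30, 2.29 ± 0.32 and 3.16 ± 0.32 in WT (limma adjusted p 2.65e-09 to 0.000113).

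Psmb10, which encodes beta 2i, had a different time course. KO sham arrays read 8.75, 8.52, 8.48 and 8.75, KO day 1 arrays 9.49, 9.45, 9.34 and 9.42, KO day 3 arrays 8.99, 8.92, 9.12, 9.07 and 8.85, and KO day 7 arrays 8.98, 8.94, 9.09 and 9.23. WT sham arrays read 8.56, 8.49, 8.82 and 8.39, WT day 1 arrays 9.48, 9.04, 9.09, 9.15 and 9.29, WT day 3 arrays 8.78, 9.0, 8.82 and 8.89, and WT day 7 arrays 9.02, 8.83, 8.85 and 9.10. The day 1 arrays were the highest of each genotype on average, and the day 3 WT arrays overlapped the WT sham arrays. With groups by the source and time fields the WT day 3 difference was 0.21 and not called (limma adjusted p 0.126). Differences from sham were 0.80 ± 0.10, 0.37 ± 0.09 and 0.43 ± 0.10 in KO on days 1, 3 and 7, and 0.64 ± 0.09, 0.31 ± 0.10 and 0.39 ± 0.10 in WT (limma adjusted p 1.75e-07 to 0.00777). Psmb10 fell between day 1 and day 3 in both genotypes. The WT call for this fall was lost in a fit of only the groups compared (limma adjusted p 0.0546). It was also lost with groups by the source and time fields (0.131).

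The PA28 activator subunits rose as well. For Psme1, which encodes PA28 alpha, KO sham arrays read 8.65, 8.45, 8.56 and 8.42, KO day 1 arrays 9.18, 9.10, 8.93 and 9.14, KO day 3 arrays 9.67, 9.44, 9.86, 9.74 and 9.52, and KO day 7 arrays 9.80, 9.70, 9.80 and 9.81. WT sham arrays read 8.32, 8.43, 8.78 and 8.62, WT day 1 arrays 9.18, 9.13, 9.06, 9.09 and 8.98, WT day 3 arrays 9.55, 9.26, 9.46 and 9.49, and WT day 7 arrays 9.72, 9.48, 9.70 and 9.86. Every injured array was above the sham arrays of its genotype, and the day 3 arrays were all above the day 1 arrays. Differences from sham were 0.57 ± 0.10, 1.13 ± 0.09 and 1.26 ± 0.10 in KO on days 1, 3 and 7, and 0.55 ± 0.09, 0.90 ± 0.10 and 1.15 ± 0.10 in WT (limma adjusted p 1.01e-11 to 2.52e-05).

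Probe set 1417189_at, shared by Psme2 (PA28 beta) and Psme2b, read 8.79, 8.37, 8.66 and 8.68 in KO sham arrays, 9.72, 9.52, 9.48 and 9.65 on day 1, 9.84, 9.60, 10.24, 10.09 and 9.67 on day 3, and 9.75, 9.71, 9.79 and 9.81 on day 7. In WT it read 8.44, 8.56, 8.98 and 8.74 in sham arrays, 9.84, 9.62, 9.38, 9.64 and 9.37 on day 1, 9.69, 9.45, 9.65 and 9.56 on day 3, and 9.70, 9.41, 9.65 and 9.86 on day 7. Injured and sham arrays did not overlap in either genotype, and which of the 2 genes gave the signal cannot be read from this probe set. The differences from sham were 0.97 ± 0.13, 1.26 ± 0.12 and 1.14 ± 0.13 in KO on days 1, 3 and 7, and 0.89 ± 0.12, 0.91 ± 0.13 and 0.97 ± 0.13 in WT (limma adjusted p 8.15e-10 to 1.01e-06).

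**Figure D1:**
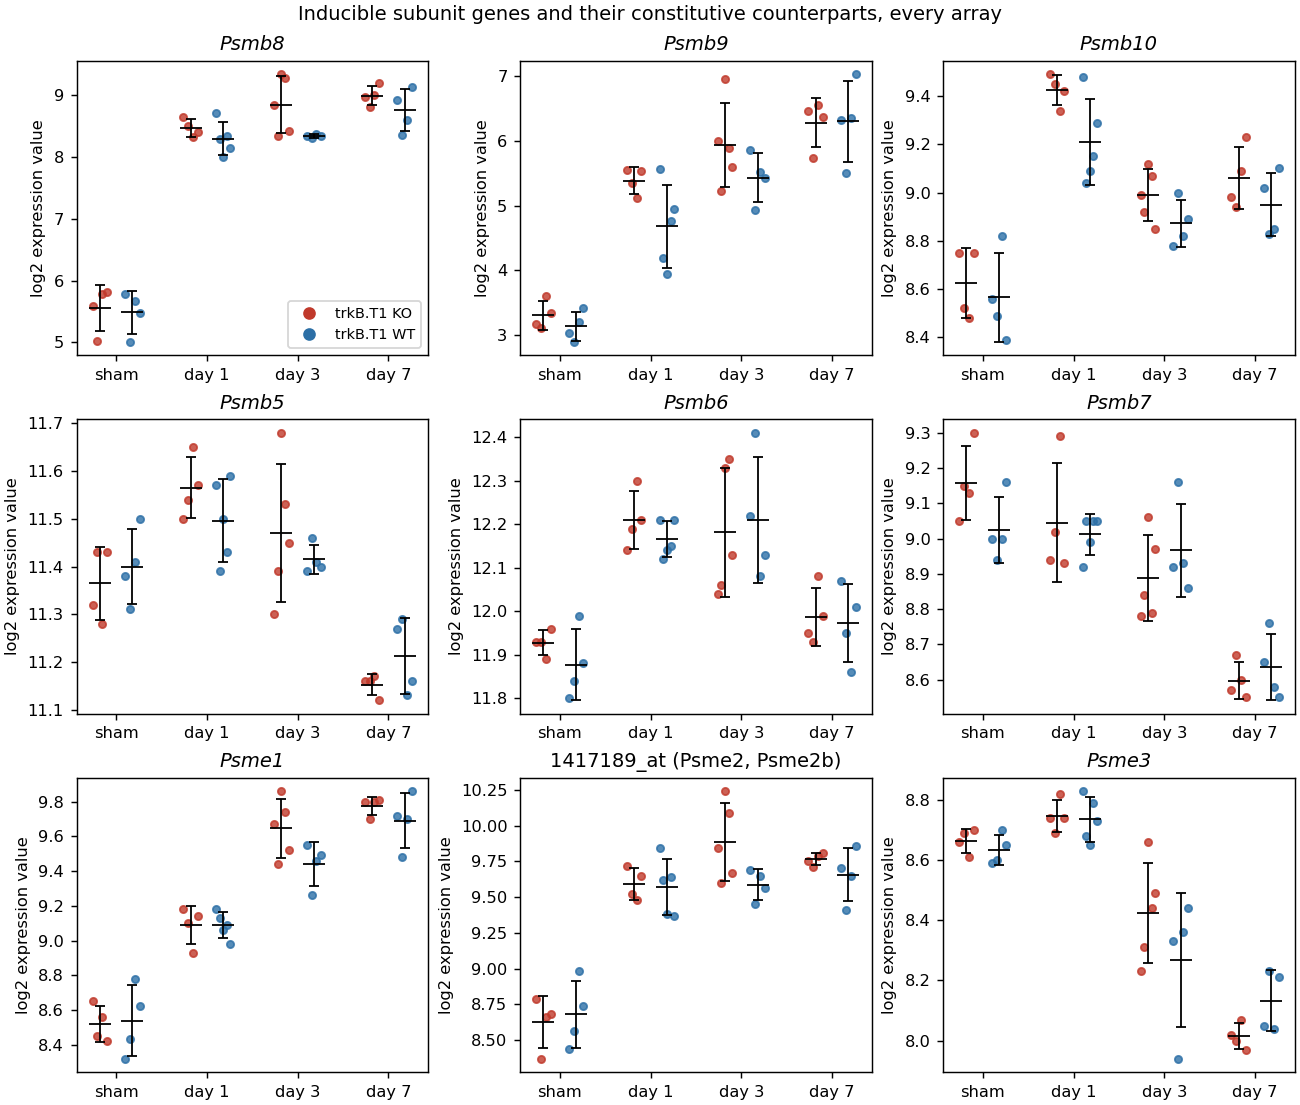
Log2 expression value (vertical axis, own range per panel) of the 5 inducible members and of Psmb5, Psmb6, Psmb7 and Psme3 in every array, by time (horizontal axis), trkB.T1 KO left of trkB.T1 WT; points are arrays, horizontal lines group means and bars ± SD. Psmb8 lies between 5.01 and 5.82 in sham arrays and at 8.00 or above in all injured arrays, while the group means of Psmb7 and Psme3 are lowest on day 7.

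The catalytic subunits that these inducible ones replace did not share their course. Psmb5, the chymotrypsin-like subunit, read 11.32, 11.43, 11.28 and 11.43 in KO sham arrays and 11.16, 11.16, 11.17 and 11.12 on day 7, and 11.38, 11.31, 11.41 and 11.50 in WT sham arrays and 11.27, 11.29, 11.13 and 11.16 on day 7. Its day 7 arrays all lay below sham. Psmb5 rose by 0.20 ± 0.07 in KO on day 1 (limma adjusted p 0.017) and on day 7 fell by 0.22 ± 0.07 in KO (adjusted p 0.00811) and by 0.19 ± 0.07 in WT (adjusted p 0.0175). Its other 3 differences did not pass. The Psmb5 call in WT on day 7 was lost with groups by the source and time fields (-0.12, limma adjusted p 0.191) and without day 7 WT replicate 3 (0.0631) or 4 (0.0509) or sham WT replicate 4 (0.0684), and the KO call on day 1 without day 1 KO replicate 3 (0.0557) or sham KO replicate 3 (0.0585). Psmb6, the caspase-like subunit, rose by 0.28 ± 0.07 and 0.26 ± 0.07 in KO on days 1 and 3 and by 0.28 ± 0.07 and 0.33 ± 0.07 in WT, and its day 7 differences of 0.06 in KO and 0.09 in WT did not pass.

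Psmb7, the trypsin-like subunit, moved the other way. It read 9.05, 9.15, 9.13 and 9.30 in KO sham arrays and 8.57, 8.67, 8.60 and 8.55 on day 7, and 9.0, 8.94, 9.0 and 9.16 in WT sham arrays and 8.65, 8.76, 8.58 and 8.55 on day 7. It fell by 0.27 ± 0.08 on day 3 and by 0.56 ± 0.08 on day 7 in KO, and by 0.39 ± 0.08 on day 7 in WT (limma adjusted p 2.15e-06 to 0.00288). Psme3 encodes PA28 gamma, a nuclear activator that is not part of the interferon-induced pair. Psme3 read 8.66, 8.69, 8.61 and 8.70 in KO sham arrays and 8.02, 8.00, 8.07 and 7.97 on day 7, and 8.59, 8.60, 8.70 and 8.65 in WT sham arrays and 8.05, 8.23, 8.04 and 8.21 on day 7. It fell by 0.24 ± 0.08 and 0.65 ± 0.09 in KO on days 3 and 7 and by 0.37 ± 0.09 and 0.50 ± 0.09 in WT (adjusted p 4.72e-07 to 0.0116), while the day 1 differences of 0.08 in KO and 0.10 in WT did not pass. The Psme3 call in KO on day 3 was lost in a fit of only the groups compared (adjusted p 0.0503) and with groups by the source and time fields (0.0699). Psme3 and Psme1, both subunits of PA28-type activators, therefore differed in direction on days 3 and 7.

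The change of each inducible member relative to its counterpart was tested on the log2 difference between the 2 probe sets within each array. This leaves out whatever scales a whole array, and only changes of that difference were read, since levels of different probe sets are not comparable. Psmb8 gained 2.72, 3.20 and 3.66 on Psmb5 in KO on days 1, 3 and 7, and 2.72, 2.85 and 3.46 in WT. Psmb9, below 4 in the sham arrays, gained at least 1.79, 2.36 and 2.91 on Psmb6 in KO and at least 1.26, 1.96 and 3.07 in WT. Psmb10 gained 0.91, 0.64 and 1.00 on Psmb7 in KO and 0.66, 0.37 and 0.78 in WT. Although Psmb10 itself was highest on day 1, its gain on Psmb7 on day 7 was no smaller than on day 1.

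Psme1 gained 0.49, 1.36 and 1.91 on Psme3 in KO on days 1, 3 and 7, and 0.45, 1.27 and 1.66 in WT. Probe set 1417189_at gained 0.89, 1.5 and 1.79 on Psme3 in KO and 0.79, 1.28 and 1.48 in WT. In all 30 of these comparisons the injured arrays did not overlap the sham arrays. Single probe sets lay wholly above sham in 20.9% to 23.8% of those tested. No such share was computed for differences between 2 probe sets. The two-sided exact permutation p over arrays was 0.0159 or 0.0286, the smallest these group sizes allow, and 0.0446 after Benjamini-Hochberg adjustment over 50 such tests. With the day 1 WT arrays of conflicting label fields left out, 0 of the 30 passed after adjustment. The smallest p that the smaller day 1 WT group can give is larger (adjusted permutation p 0.0816). The other comparisons kept their arrays and exact p, but their adjusted p rose to 0.0529 because all tests were adjusted together. The passes therefore depend on many tests tied at the smallest possible p.

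Most of the 34 constitutive genes had small rises on day 1, and most of these rises were gone or turned to falls by day 7. In KO, 24 were higher and 1 lower than in sham on day 1, 14 higher and 3 lower on day 3, and 2 higher and 11 lower on day 7. In WT the counts were 26 higher and 2 lower on day 1, 19 higher and 2 lower on day 3, and 2 higher and 12 lower on day 7. Called higher were 20.9%, 28.2% and 19.8% of all tested probe sets in KO on days 1, 3 and 7. In WT these shares were 24%, 26.1% and 21.8%, so the day 7 count of higher genes is below the background in both genotypes. The share of all tested probe sets called lower was 23.7%, 36.7% and 27.4% in KO on days 1, 3 and 7, and 28.9%, 35.7% and 31.7% in WT, so the day 7 count of lower genes is near the background in both genotypes. The median log2 differences were 0.27, 0.12 and -0.12 in KO and 0.26, 0.19 and -0.13 in WT.

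Day 3 WT replicate 2, the array of lowest weight, was the highest of the 4 day 3 WT arrays for 32 of the 34 constitutive genes, and without it 13 were higher and 2 lower in WT on day 3. When the library labelled sham KO replicate 2 was left out, KO counts were 23 higher and 0 lower on day 1, 13 and 2 on day 3, and 2 and 8 on day 7. Without the 3 arrays of lowest weight, an alternative chosen after seeing the data, 13 were higher and 3 lower in KO and 15 higher and 2 lower in WT on day 3. All 5 inducible members were called higher in each injury comparison under each of these omissions. None of the 34 constitutive genes reached a 1.5-fold difference with a call on day 1 or day 7 in either genotype, and 2 did in KO and 1 in WT on day 3. The share of all tested probe sets at this fold limit was not computed.

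**Figure D2:**
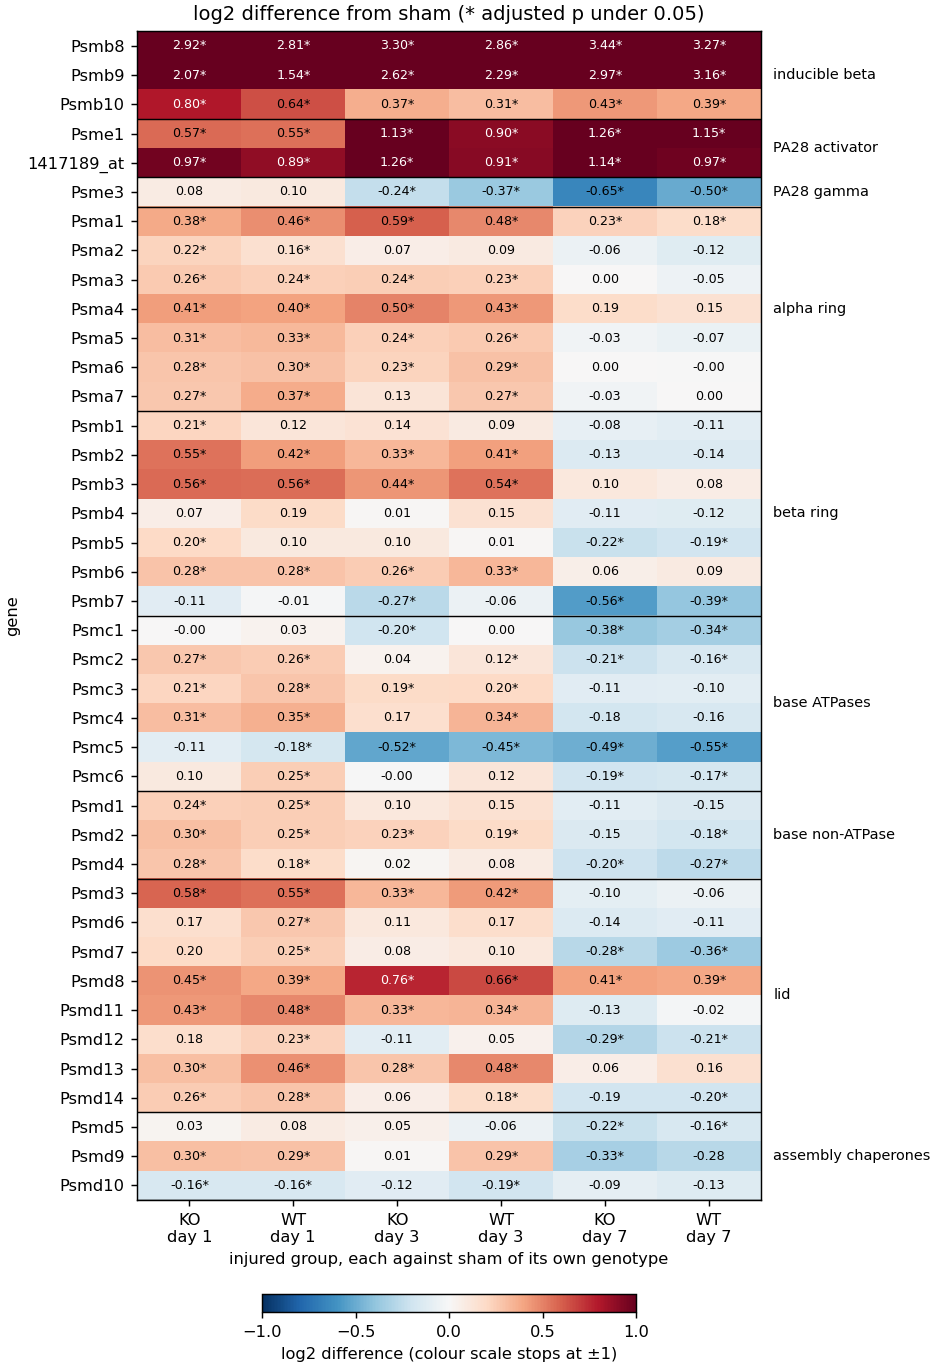
Log2 difference from sham of the same genotype (colour, scale stopped at ±1, and printed value) for the inducible and constitutive members and Psme3, in rows grouped by role, with 1 column per injured group, KO left of WT at each time; asterisks mark a limma adjusted p under 0.05. The top 5 rows are positive with a call in all 6 columns, whereas the constitutive rows pass from mostly positive on day 1 to mostly negative on day 7.

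The alpha ring, whose subunits gate the core particle, rose as a whole on day 1. All 7 alpha genes were called higher on day 1 in both genotypes, with medians of 0.28 in KO and 0.33 in WT, and 5 in KO and 6 in WT were called higher on day 3. Of all tested probe sets, 20.9% in KO and 24% in WT were called higher on day 1, and 28.2% and 26.1% on day 3. Psma1 was the only alpha gene still called higher on day 7, in both genotypes. It read 11.25, 11.20, 11.25 and 11.23 in KO sham arrays, 11.58 to 11.64 on day 1, 11.67 to 11.95 on day 3, and 11.43 to 11.51 on day 7, and 11.07 to 11.37, 11.63 to 11.84, 11.68 to 11.78 and 11.39 to 11.44 in the same WT groups. Psma1 was higher by 0.59 ± 0.06 in KO and 0.48 ± 0.06 in WT on day 3 and by 0.23 ± 0.06 in KO and 0.18 ± 0.06 in WT on day 7 (limma adjusted p 1.02e-09 to 0.0135), although another probe set of this gene, 1458292_at, fell by 0.51 in KO on day 7 and by 0.42 in WT on day 3. Psma4 rose by 0.50 in KO and 0.43 in WT on day 3. Its injured arrays, like those of Psma1, lay above all sham arrays at each time in both genotypes, without a call on day 7. Such separation held for 20.9% to 23.8% of tested probe sets.

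Among the 7 constitutive beta genes, 5 in KO and 3 in WT were called higher on day 1, against 20.9% and 24% of all tested probe sets. None in KO or WT was called higher on day 7. Psmb3, a non-catalytic beta subunit, rose by 0.56 ± 0.10 in both genotypes on day 1 and by 0.44 ± 0.10 in KO and 0.54 ± 0.10 in WT on day 3 (limma adjusted p 3.14e-05 to 0.000279). Its WT day 3 arrays read 11.90, 12.54, 11.91 and 11.85, the second being the array of lowest weight. Psmb2, also non-catalytic, rose by 0.55 in KO and 0.42 in WT on day 1.

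The regulatory particle's base holds 6 ATPases, which unfold substrates, and they were divided. At day 1, 3 were higher and none lower in KO, against 20.9% and 23.7% of all tested probe sets. In WT 4 were higher and 1 lower, against 24% and 28.9%. On day 7, none was higher and 4 were lower in each genotype, against 27.4% lower in KO and 31.7% in WT. Psmc5 fell the most among constitutive genes on day 3 in both genotypes. It read 12.53, 12.58, 12.46 and 12.58 in KO sham arrays, 12.33 to 12.52 on day 1, 11.77 to 12.20 on day 3 and 12.00 to 12.13 on day 7, and 12.50 to 12.60, 12.27 to 12.49, 12.05 to 12.17 and 11.90 to 12.16 in the same WT groups. Its day 3 and day 7 arrays did not overlap sham in either genotype. Psmc5 fell by 0.52 ± 0.08 and 0.49 ± 0.08 in KO on days 3 and 7 and by 0.45 ± 0.08 and 0.55 ± 0.08 in WT (limma adjusted p 1.03e-06 to 2.15e-05), and on day 1 by 0.18 ± 0.08 in WT (adjusted p 0.0496). Psmc1 fell by 0.20 ± 0.07 and 0.38 ± 0.08 in KO on days 3 and 7, and by 0.34 ± 0.08 in WT on day 7.

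Of the 3 non-ATPase base genes (Psmd1, a scaffold, and the ubiquitin receptors Psmd2 and Psmd4), all 3 were higher on day 1 in both genotypes, with medians of 0.28 in KO and 0.25 in WT. The lid, which carries the deubiquitinase Psmd14, had 8 measured genes, of which 5 in KO and 8 in WT were higher on day 1. Of all tested probe sets, 20.9% in KO and 24% in WT were called higher on that day. Psmd8, a lid scaffold subunit, was the constitutive gene with the largest rise on days 3 and 7. It read 9.76, 9.76, 9.75 and 9.90 in KO sham arrays, 10.19 to 10.27 on day 1, 10.29, 10.38, 10.99, 10.78 and 10.33 on day 3, and 10.16 to 10.23 on day 7. In WT it read 9.77, 9.79, 9.90 and 9.98 in sham arrays, 10.14 to 10.37 on day 1, 10.42, 11.05, 10.33 and 10.29 on day 3, and 10.15 to 10.34 on day 7. The 3 highest Psmd8 values came from the 3 arrays of lowest weight, and every injured array was above sham. The differences were 0.76 ± 0.12 in KO and 0.66 ± 0.13 in WT on day 3, and 0.41 ± 0.13 in KO and 0.39 ± 0.13 in WT on day 7 (limma adjusted p 3.16e-06 to 0.0117).

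Psmd3, also of the lid, rose on day 1 by 0.58 ± 0.12 in KO and 0.55 ± 0.11 in WT (limma adjusted p 0.000271 and 0.000219), and Psmd11 by 0.43 ± 0.09 in KO and 0.48 ± 0.09 in WT. Psmd7 fell by 0.28 ± 0.09 in KO and by 0.36 ± 0.09 in WT on day 7. Psmd13 rose by 0.46 in WT on day 1 and by 0.48 in WT on day 3, while another probe set of this gene, 1445729_at, fell by 0.55 and by 0.80 in the same comparisons. The assembly chaperones Psmd5, Psmd9 and Psmd10 help build the base and are not part of the finished particle. Psmd10 was lower on day 1 by 0.16 ± 0.06 in KO (adjusted p 0.0384) and in WT (adjusted p 0.0217), and fell by 0.19 ± 0.06 in WT on day 3. Psmd9 rose by 0.30 in KO and 0.29 in WT on day 1 and fell by 0.33 in KO on day 7.

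**Figure D3:**
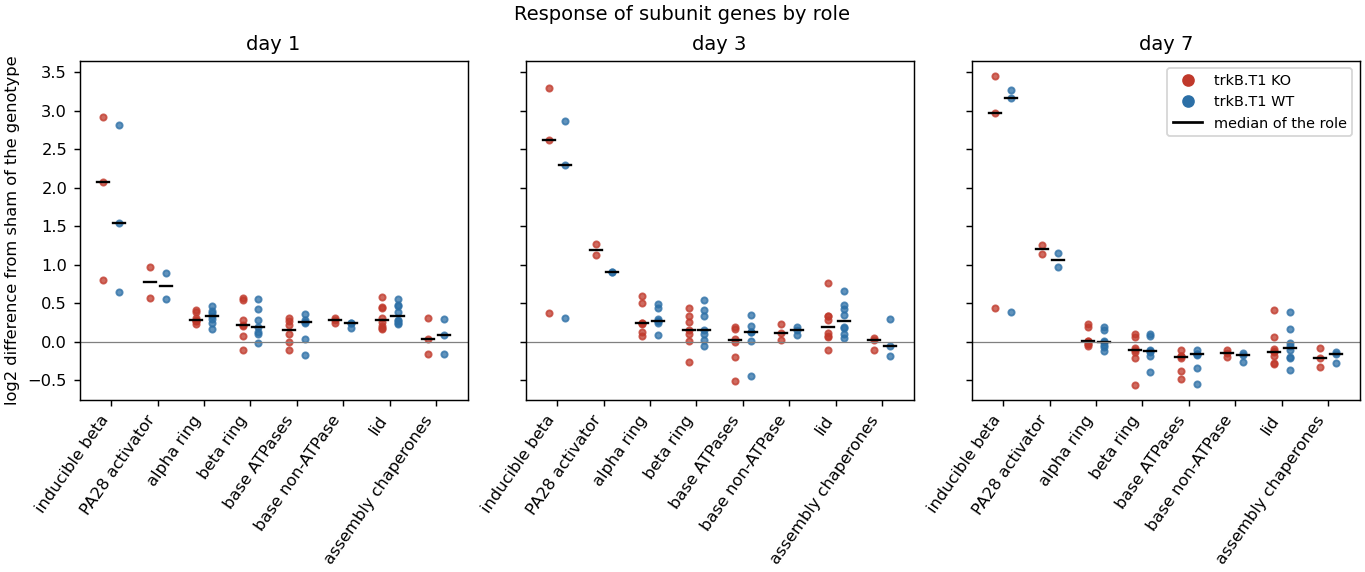
Log2 difference from sham (vertical axis) of each inducible and constitutive member, grouped by role (horizontal axis) in 1 panel per time; points are genes, trkB.T1 KO left of trkB.T1 WT, and short lines role medians. At day 7 the PA28 activator medians are 1.20 in KO and 1.06 in WT, while those of the base ATPases are -0.20 in KO and -0.17 in WT.

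The steps between injured times gave constitutive genes more falls than the background only between day 3 and day 7, and a count that varied with the arrays kept between day 1 and day 3. Between day 3 and day 1, 0 constitutive genes were higher and 2 lower in WT, against 11.7% of all tested probe sets higher and 15.4% lower, and 2 were higher and 8 lower in KO, against 19.4% and 27.2%. These counts are not stable: without day 3 WT replicate 2 the WT count was 13 lower, and without the 3 arrays of lowest weight 19 were lower in KO and 14 in WT. Among inducible members, Psme1 and 1417189_at were higher and Psmb10 lower on day 3 than on day 1 in KO, and Psme1 was higher and Psmb10 lower in WT. The 1417189_at call (0.30 ± 0.12, limma adjusted p 0.0486) was lost without a filter (adjusted p 0.0842), under array weights (0.19), in a fit of only the groups compared (0.126), with groups by the source and time fields (0.138), without the 3 arrays of lowest weight (a difference of 0.114, 0.494) and without any one of 6 arrays, day 3 KO replicate 1, 3 or 4 or day 1 KO replicate 2, 3 or 4 (0.0579 to 0.171). Both WT calls were lost with groups by the source and time fields (adjusted p 0.0645 for Psme1 and 0.131 for Psmb10), and the Psmb10 one also in a fit of only the groups compared (0.0546). Between day 7 and day 3, 0 constitutive genes were higher and 26 lower in KO, against 16.2% of all tested probe sets higher and 14.2% lower, and 0 were higher and 28 lower in WT, against 8.64% and 10.5%. The medians of these differences were -0.25 in KO and -0.30 in WT. Without day 3 WT replicate 2 the WT count was 19, and in a fit of only the groups compared it was 3 in WT and 17 in KO. Of the inducible members, 0 were called between day 7 and day 3 in either genotype.

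The symbols outside both classes had courses of their own. Psme4, which encodes the PA200 activator, rose by 0.69 ± 0.14 in KO and 0.71 ± 0.15 in WT on day 3 (limma adjusted p 0.000124 and 0.000189). It read 9.79, 10.00, 9.80 and 9.97 in KO sham arrays and 10.57, 10.29, 11.31, 10.57 and 10.15 on day 3, and 9.84, 9.85, 9.83 and 9.79 in WT sham arrays and 10.39, 10.99, 10.32 and 10.46 on day 3. One of its other probe sets, 1446464_at, fell by 0.31 in WT on day 3. Psmc3ip, a meiotic recombination factor whose symbol meets the rule by name only, rose by 1.75 ± 0.20 in KO and 1.61 ± 0.21 in WT on day 3 (adjusted p 1.9e-08 and 2.98e-07). Its probe set read 6.64 to 7.40 in KO and 6.58 to 6.93 in WT on day 3, against 4.44 to 5.75 in KO sham and 4.88 to 5.36 in WT sham arrays. Psme3ip1, which encodes a partner protein of PA28 gamma, fell by 0.20 ± 0.06 in KO and in WT on day 3.

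Loss of trkB.T1 gave no call for any of the 43 tested members. The question of this comparison is whether the receptor isoform alters the response to contusion. The share of all tested probe sets called between KO and WT was 0.0529% in sham, 0.549% on day 1, 0.0366% on day 3, 0.0407% on day 7 and 0.126% for the mean of the 4 conditions, so calls were rare everywhere. In simulated data with the spreads of these arrays, 100 probe sets were given a KO minus WT difference of 0.5 on day 7, and 51% of them were called. Of 100 others given a difference of 1, 85% were called, so the lack of a call does not show that a difference is absent. The real day 7 comparison called only 10 probe sets. With more true changes the adjustment is more lenient, so these percentages can overstate how often a member's difference would be called. At an unadjusted p under 0.05, 0 members passed in sham, 3 on day 1, 3 on day 3, 0 on day 7 and 5 for the mean. These are 0%, 6.98%, 6.98%, 0% and 11.6% of the 43, against 4.5%, 8.82%, 10.6%, 4.66% and 7.42% of all tested probe sets. The constitutive differences ranged from -0.11 to 0.14 in sham, -0.13 to 0.10 on day 1, -0.21 to 0.10 on day 3 and -0.09 to 0.14 on day 7.

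None of the members with the smallest p passed after adjustment. Psmb9 on day 1 differed by 0.70 ± 0.30 and Psmb10 by 0.22 ± 0.09 (limma adjusted p 0.47 for both), and Psmc3ip by -0.45 ± 0.20 (0.50). Psmb8 on day 3 differed by 0.50 ± 0.20 and 1417189_at by 0.30 ± 0.12 (adjusted p 0.41 for both), and Psme1 by 0.21 ± 0.09 (0.44). For each of them the highest day 3 KO values came from replicates 3 and 4, arrays of low weight (0.16 and 0.21). The lowest day 3 WT values of Psme1 and 1417189_at came from replicate 2 (weight 0.09). Across the 4 conditions the mean differences were 0.13 ± 0.05 for Psmb10 (adjusted p 0.48), 0.25 ± 0.10 for Psmb8 (0.54) and 0.34 ± 0.15 for Psmb9 (0.62). In sham the smallest p belonged to Psmb7 and Psmd6, both 0.13 ± 0.08, and Psmd2 at -0.11 ± 0.07, and on day 7 to Psmd7 (0.14), Psmb4 (0.13) and Psme3 (-0.12), with an adjusted p of 1 in each case.

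The interaction, the KO difference from sham minus the WT one, also gave 0 member calls at each time, against 0.0692%, 0% and 0.00407% of all tested probe sets on days 1, 3 and 7. The smallest p on day 1 belonged to Psmc3ip (-0.66 ± 0.29, limma adjusted p 0.86), Psmc6 (-0.15 ± 0.08, 0.94) and Psmb9 (0.53 ± 0.44, 1). At day 3 they were 1417189_at (0.35 ± 0.18, 0.78), Psmb7 (-0.21 ± 0.11, 0.78) and Psmc1 (-0.20 ± 0.11, 0.79), and on day 7 Psmb7 (-0.17), Psme3 (-0.15) and Psme4 (-0.20), each with an adjusted p of 1.

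Within arrays, 3 of 20 KO against WT comparisons of an inducible member with its counterpart passed after adjustment over the same 50 tests, 30 of which set injured against sham arrays. Adjusted over the 20 genotype tests alone, a choice made after seeing the data, 0 passed (smallest adjusted exact permutation p 0.211), and 2 of the 3 share Psme3. Psmb8 relative to Psmb5 was 0.45 higher in KO on day 3 (two-sided exact permutation p 0.0317, adjusted 0.0481), with arrays of the genotypes overlapping. Relative to Psme3 on day 7, Psme1 was 0.21 and 1417189_at 0.23 higher in KO, with no overlap (exact permutation p 0.0286, adjusted 0.0446 for both). Among single probe sets on day 7, the KO arrays lay wholly above the WT arrays for 4.58% of those tested and wholly below for 2.92%. Each adjusted p lies close to the threshold, and 0 of the 20 passed when each gene was taken as the mean of its probe sets or when the day 1 WT arrays of conflicting fields were left out.

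**Figure D4:**
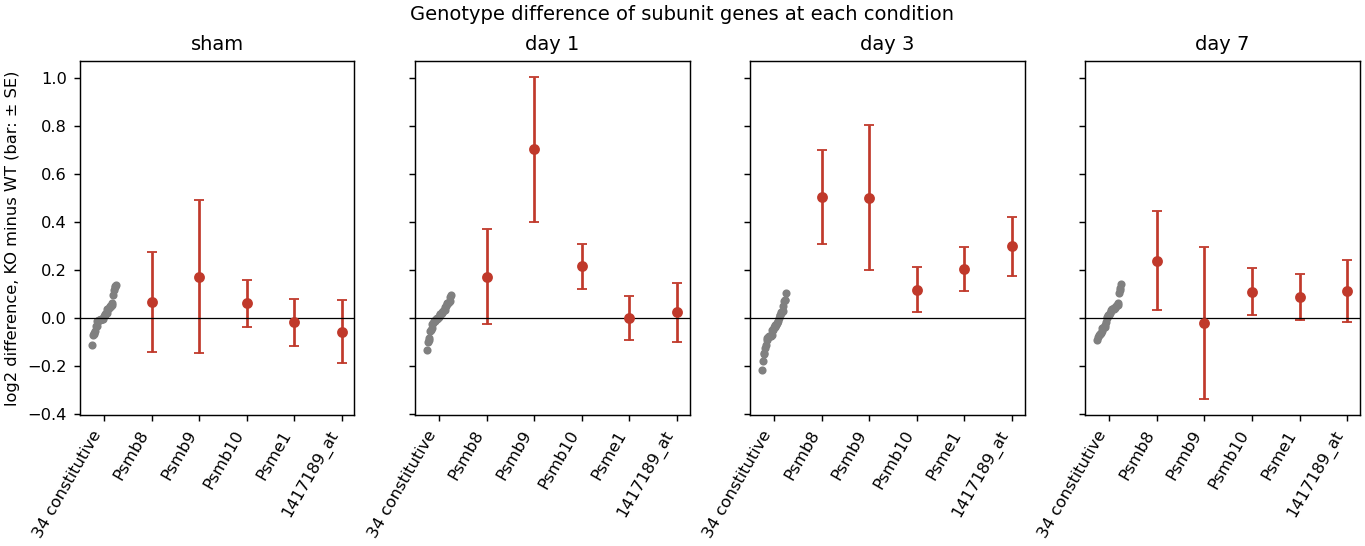
Log2 difference KO minus WT (vertical axis) in sham, day 1, day 3 and day 7 panels; grey points are the 34 constitutive genes in order of size and red points the 5 inducible members with bars of ± 1 SE. Psmb9 on day 1 (0.70) and Psmb8 and Psmb9 on day 3 (0.50 each) are the largest, and no member has an adjusted p under 0.05.

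Other genes of the pathway were read from lists of its factors. On day 1, 20.9% of all tested probe sets were called higher in KO and 24% in WT. Of 6 assembly factors, 3 were higher on day 1 in KO and in WT and none was called on day 7: Pomp, the core maturation factor, rose by 0.25 in KO and 0.28 in WT, and the chaperones Psmg3 and Psmg4 by 0.45 and 0.52 in KO and 0.30 and 0.40 in WT. Nfe2l1, the factor known to restore proteasome genes when proteasomes are inhibited, fell by 0.47 and 0.37 in KO on days 3 and 7 and by 0.45 and 0.34 in WT. Nfe2l2, the oxidative stress factor, rose by 0.76, 1.49 and 1.46 in KO on days 1, 3 and 7 and by 0.94, 1.03 and 1.49 in WT. Of 12 genes of ubiquitin handling at the proteasome, 3 were higher and 8 lower on day 3 in each genotype. The shares of all tested probe sets were 28.2% higher and 36.7% lower in KO and 26.1% and 35.7% in WT. The count of higher genes is thus near the background. The proteasome deubiquitinases Usp14 and Uchl5 fell by 0.45 and 0.58 in KO and by 0.54 and 0.52 in WT on day 7, whereas the shuttle factor Rad23b rose by 0.80 in KO and 0.84 in WT on day 1.

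Genes of interferon gamma signalling and class I peptide loading rose in the same comparisons as the inducible members. Of 16 tested, 14 were higher in KO at each time, and 14, 13 and 14 in WT on days 1, 3 and 7, with none lower. Of all tested probe sets, 19.8% to 28.2% were called higher in these comparisons. Tap1, which carries peptides into the endoplasmic reticulum, rose by 2.54, 2.04 and 1.93 in KO on days 1, 3 and 7 and by 1.43, 1.61 and 1.72 in WT. Nlrc5, the class I transactivator, rose by 3.47 in KO and 2.64 in WT on day 1, and B2m, the class I light chain, by 2.26 in both genotypes on day 7. One gene of this list, Stat2, was called higher in KO than in WT on day 1, when 0.549% of all tested probe sets were called in either direction. In sham, on day 3 and on day 7, 0 of the 16 were called between genotypes.

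Markers of several cell types were higher in the same comparisons as the inducible members. In these 6 comparisons 19.8% to 28.2% of all tested probe sets were called higher and 23.7% to 36.7% lower. All 6 leukocyte markers were called higher in each, with median log2 differences of 1.72, 3.35 and 3.57 in KO on days 1, 3 and 7 and 1.71, 2.51 and 3.41 in WT. The mean log2 value of 6 leukocyte markers lay between 7.45 and 7.94 in KO sham arrays, 9.19 and 9.66 on day 1, 10.60 and 11.38 on day 3 and 10.97 and 11.11 on day 7. The WT ranges were 7.86 to 8.25, 9.39 to 9.78, 10.09 to 10.76 and 10.94 to 11.35. For 8 macrophage and microglia markers they were 6.68 to 7.30, 8.90 to 9.40, 10.87 to 11.48 and 11.29 to 11.39 in KO, and 7.35 to 7.56, 9.11 to 9.69, 10.04 to 10.95 and 11.37 to 11.68 in WT. The 6 T cell markers found, of 8 sought, were below 4 on every array, as were the 3 found of 4 each for B cells and for natural killer cells. The mean of 6 neuron markers was 13.05 to 13.19 in KO sham and 12.50 to 12.57 in KO day 7 arrays, and 13.10 to 13.16 and 12.36 to 12.51 in WT. Of 5 neutrophil markers, 0, 1 and 1 were called higher in KO on days 1, 3 and 7. In WT 0, 0 and 1 were, and none was lower in either genotype. Of 4 oligodendrocyte markers, 2, 4 and 3 were called lower on these days in each genotype, and none higher. Of 5 astrocyte markers, 2, 2 and 3 were called higher in each genotype. Lower calls were 1, 2 and 0 in KO and 3, 2 and 0 in WT.

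Endothelial markers were called higher for 2, 4 and 1 of 4 in KO on days 1, 3 and 7 and for 4, 4 and 1 in WT, with median differences of 0.97, 1.83 and -0.49 in KO and 1.75, 2.44 and 0.60 in WT. The day 7 count is near the share of all tested probe sets called higher, 19.8% in KO and 21.8% in WT. The mean of these markers is given next. Their mean lay between 5.48 and 5.79 in KO sham arrays, 6.15 and 6.71 on day 1, 6.29 and 8.39 on day 3 and 5.25 and 5.72 on day 7, and the WT ranges were 4.91 to 5.17, 6.45 to 6.97, 7.02 to 8.29 and 4.86 to 6.77. Of the 2 Schwann cell markers found, of 4 sought, 1 was called higher in KO and 2 in WT at each time, with means of 7.42 to 9.56 in KO sham and 9.40 to 10.44 in KO injured arrays, and 6.91 to 7.48 in WT sham and 9.39 to 10.62 in WT injured arrays.

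The mean of 7 skeletal muscle markers ranged from 8.16 to 11.19 in KO sham arrays, 3.21 to 7.11 on day 1, 4.55 to 14.01 on day 3 and 3.93 to 5.42 on day 7. The WT ranges were 2.86 to 9.54, 2.93 to 8.69, 7.03 to 10.15 and 3.88 to 10.48. In KO, 7 of these markers were called lower on day 1, 0 on day 3 and 6 on day 7, with medians of -5.21, -1.71 and -5.18, and in WT 0 were called at any time, with medians of -1.47, 2.21 and 0.37. In bulk tissue, fewer cells of a type and less RNA per cell cannot be told apart. The part of cell composition in the proteasome differences was not tested.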

How the data were processed

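Gene expression was read from the deposited series matrix of 34 Affymetrix mouse genome arrays. Biotinylated cRNA was made from 1 µg of Trizol-extracted RNA, per the labels. The deposited log2 expression values were computed by the authors with GCRMA, per the submitters' processing notes, with the version not given in the sources used here; the log2 scale was inferred from their range of 2.17 to 15.904 (array medians 4.139 to 4.39). GCRMA compresses low signals toward a floor, so differences from values near it are lower bounds. No 2 arrays were identical (0 pairs), and 0 columns were left out. The number of arrays per group limits the precision.

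Of 45101 probe sets (64 controls), the platform table names 1 gene for 34958, several for 932 and none for 9211. Symbols were matched by Entrez identifier to RefSeq, for 44 of 45 members. A linear model of 8 group means was fitted to 24573 probe sets with limma 3.58.1 in R 4.3.3 (lmFit, eBayes; 26 residual and 2.62 prior degrees of freedom), with Benjamini-Hochberg adjustment, and was tested on simulated data. Within-array differences were compared by two-sided exact permutation over arrays with scipy 1.17.1. Same-numbered replicates did not deviate together (113 pairs, median correlation 0.0052), so the numbers were not used as a block. The p-values measure the spread between these samples.

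For each injury comparison the constitutive genes named were the 3 with the largest positive and the 3 with the largest negative called difference. For KO against WT and the interaction they were the called members or, failing 3, those of smallest p. The members and gene lists were chosen with earlier results of these data known. The alternatives covered the filter, normalization, array weights, fold limit, fit, replicate block, grouping by other label fields and omission of arrays. Some genes of the lists are not reported here.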

Additional observations from a re-analysis of the deposited data

Results flagged for a closer look

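In each of the 8 groups, the arrays of the 9 genes given array by array were examined for a value far from the others, 72 examinations in all, of which 2 met Dixon's criterion for a single outlying value; chance flags about 1 in 20 groups. Psme1 in day 7 KO replicate 2 read 9.70, against 9.80 to 9.81 in the other day 7 KO arrays. Psmb5 in day 3 WT replicate 2 read 11.46, against 11.39 to 11.41 in the other day 3 WT arrays, and this is the array of lowest weight. Both gaps are 0.10 or less on the log2 scale.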

How the results depend on the processing

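The 36 counts of called members were recomputed under 13 alternatives and with each of the 34 arrays left out in turn. Single-gene differences were followed only for the 5 inducible members, Psmb5, Psmb6, Psmb7 and Psme3. None of these reversed its sign past the threshold. All 5 inducible members were called higher in the 6 injury comparisons in all but 2 alternatives. With a 1.5-fold difference also required, 4 were in each, and with grouping by the source and time fields 4 were in WT at day 3. The KO against WT and interaction counts were 0 throughout. The 1.5-fold requirement left 0, 2 and 0 constitutive genes in KO at days 1, 3 and 7 (25, 17 and 13 otherwise), 0, 1 and 0 in WT (28, 21 and 14), and 0 constitutive and 0 inducible members in each step between injured times. Under array weights the constitutive counts were 21 in KO at day 7, 20 for KO day 3 minus day 1 (10 otherwise) and 16 for WT day 3 minus day 1 (2 otherwise). With the 3 arrays of lowest weight left out these steps gave 19 and 14. Fitting only the groups compared gave 9 in WT at day 3, 17 for KO day 7 minus day 3 (26 otherwise), 3 for WT day 7 minus day 3 (28 otherwise), and 1 constitutive and 1 inducible member (2 and 2 otherwise) for WT day 3 minus day 1. Grouping by the source and time fields gave 9, 11 and 4 in WT at days 1, 3 and 7, 5 and 15 for the KO steps, 1 constitutive and 0 inducible for WT day 3 minus day 1, and 1 for WT day 7 minus day 3. Centring arrays on their median gave 1 for WT day 3 minus day 1. For WT day 7 minus day 3, 0 inducible members became 1 under a filter of 6, under quantile normalization, under an intensity trend with a robust prior and with the 2 arrays of conflicting fields left out. With the replicate number as a block (21 of 113 same-numbered pairs correlated over 0.1, and 5 arrays best with their own number) this count was 2 (Psmb9 by 0.87, adjusted p 0.0262, and Psme1 by 0.25, adjusted p 0.0453), and the block changed no other count by over 1.5 times. The within-array pairs passing after adjustment, 30 of 30 against sham and 3 of 20 for KO against WT, were 0 and 0 without the 2 arrays of conflicting fields, and those for KO against WT were 0 with the mean of probe sets and 0 when adjusted over those 20 tests alone. Leaving out 1 array gave 0 to 30 and 0 to 4 for these pairs, 5 to 11 for KO and 1 to 13 for WT constitutive genes in day 3 minus day 1, 0 to 2 inducible members for WT day 7 minus day 3, and 9 to 14 constitutive genes in WT at day 7 (9 without replicate 3). Where an array is left out, the smallest permutation p of the comparisons that use it rises, which can also raise the adjusted p of the others.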
